A study of Mus musculus with 12 samples.

Results

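The 10 genes described here encode proteins of the extracellular matrix, the mesh that cells lay down around themselves. They were chosen by name as interstitial matrix genes, without a threshold on any value: the small leucine-rich proteoglycan genes Ogn, Dcn, Fmod, Lum and Bgn, the collagen-binding glycoprotein gene Sparc, and the collagen chain genes Col1a1, Col1a2, Col3a1 and Col4a1. They are 10 of the 21959 genes in the count table, and all 10 were among the 15682 with enough counts to be tested. The choice was made with earlier results of these data known. Testes came from wild-type male mice of the outbred ICR stock, aged 8 months at the first dose and 9 months at collection. Each mouse had been gavaged daily with saline or with blueberry extract, at a dose of 50, 100 or 200 mg/kg. Each of the 4 groups had 3 libraries of polyadenylated RNA, and all 12 carried 1 batch label. The study's title asks about sperm motility in ageing and about inflammation.

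Small leucine-rich proteoglycans bind collagen fibrils and set their width and spacing, and several of them also bind growth factors of the TGF-beta family. Collagen I and collagen III form the fibrils of loose connective tissue, whereas collagen IV forms the sheet-like network of basement membranes. In the testis the matrix fills the interstitium between the seminiferous tubules and makes up the wall of each tubule, where peritubular myoid cells and Sertoli cells both contribute to the basement membrane. Sparc encodes a secreted protein that binds collagen and calcium, and in the mouse testis it is known from Sertoli and Leydig cells as well as from connective tissue. Testis samples such as these are mixtures in which fewer cells of a type and less RNA per cell cannot be told apart.

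In brief, 3 of the proteoglycan genes, Ogn, Dcn and Fmod, were lower than in saline at every dose. Bgn was lower at 50 and 200 mg/kg, and Sparc was lower at 200 mg/kg. None of the 4 collagen genes passed the test at any dose, by edgeR's quasi-likelihood test with Benjamini-Hochberg adjustment. Before adjustment 1 collagen value was under the 0.05 threshold, that of Col1a2 at 100 mg/kg, and DESeq2 called 0 of the collagen genes. Ogn and Dcn were lowest at 100 mg/kg, not at the highest dose.

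Library totals ran from 14382378 to 19118265 counts, and the 10 genes together took 0.0379 to 0.047% of a library. Levels are given as counts per 1000000 (CPM) on library sizes scaled by the trimmed mean of M values. Changes are log2 fold changes with their standard error (SE), and a gene passed at an adjusted p under 0.05 over all 15682 tested genes. In the 100 mg/kg group library 3 was unlike the other two: a chi-square of its counts, divided by its degrees of freedom, was 12.2 with library 1 and 8.06 with library 2. For the other 10 within-group pairs it lay between 1.59 and 3.07. The labels do not say that the 3 libraries of a group came from separate mice, so the p-values rest on library-to-library spread that could be technical. The 3 doses share the same saline libraries, and their differences from saline are therefore not independent of one another.

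The stretches of 250 bases just before the RefSeq transcription start are shown for members that fell and members that did not pass, so that both kinds can be read side by side. Of the 10 genes, 7 had an entry in the RefSeq promoter table of build GRCm38.p6. The windows are chr13:49607765-49608014 (plus strand) for Ogn, chr1:134037004-134037253 (plus strand) for Fmod and chrX:73483351-73483600 (plus strand) for Bgn. For the collagen genes they are chr1:45311288-45311537 (plus strand) for Col3a1 and chr8:11312827-11313076 (minus strand) for Col4a1. Each runs 5′ to 3′ towards the start, and capitals mark letters that match, on either strand, a TATA box (searched as TATAAA), a GC box (searched as GGGCGG) or a CCAAT box.
Ogn: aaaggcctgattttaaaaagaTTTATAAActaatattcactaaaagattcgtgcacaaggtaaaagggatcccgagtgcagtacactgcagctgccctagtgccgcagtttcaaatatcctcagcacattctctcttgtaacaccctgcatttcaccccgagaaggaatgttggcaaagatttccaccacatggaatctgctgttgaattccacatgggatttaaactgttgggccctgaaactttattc
Fmod: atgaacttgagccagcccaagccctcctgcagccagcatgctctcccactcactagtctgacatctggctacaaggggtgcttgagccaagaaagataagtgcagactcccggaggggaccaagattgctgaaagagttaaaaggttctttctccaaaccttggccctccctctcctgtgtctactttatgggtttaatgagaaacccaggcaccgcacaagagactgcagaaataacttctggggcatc
Bgn: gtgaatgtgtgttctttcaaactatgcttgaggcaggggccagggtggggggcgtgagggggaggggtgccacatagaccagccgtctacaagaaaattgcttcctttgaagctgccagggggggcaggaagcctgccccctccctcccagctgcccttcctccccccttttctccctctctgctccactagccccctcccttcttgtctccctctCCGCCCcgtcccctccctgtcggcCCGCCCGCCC
Col3a1: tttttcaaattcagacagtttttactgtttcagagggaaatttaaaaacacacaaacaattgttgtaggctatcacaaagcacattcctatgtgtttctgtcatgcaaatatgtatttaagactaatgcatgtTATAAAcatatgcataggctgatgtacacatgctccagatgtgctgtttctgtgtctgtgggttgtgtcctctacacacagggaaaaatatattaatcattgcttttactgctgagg
Col4a1: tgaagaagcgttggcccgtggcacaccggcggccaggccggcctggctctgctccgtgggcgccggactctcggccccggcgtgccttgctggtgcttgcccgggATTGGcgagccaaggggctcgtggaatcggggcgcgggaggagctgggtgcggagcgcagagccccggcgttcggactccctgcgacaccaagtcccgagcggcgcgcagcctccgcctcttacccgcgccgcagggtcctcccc

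Among these 5 windows, TATAAA was found in those of Ogn and Col3a1, and 12.4% of the 32851 windows of the same length searched across the genome held it. The forward match began at position -227 from the transcription start in Ogn and at -117 in Col3a1. Whether either acts as a TATA box was not tested. The forward match in Ogn overlaps a reverse match, which together read TTTATAAA. Among the same 5 windows CCAAT was found once, on the reverse strand in Col4a1, against 33.8% of all windows. GGGCGG was found 3 times on the reverse strand in Bgn, the last 2 of them overlapping, against 32.7% of all windows. Fmod held none of these motifs in its window. The windows of Sparc and Col1a2 were searched too but are not shown. Col1a2, a collagen gene that did not pass, held GGGCGG 2 times and CCAAT 1 time, all on the forward strand. Sparc held none of the motifs. GC content was 42.0% in the Ogn window, 51.2% in Fmod, 64.4% in Bgn, 35.2% in Col3a1 and 74.4% in Col4a1, against a median of 52.4% over all windows. None of these motifs was common to the windows of Ogn, Fmod and Bgn, and Dcn, which also fell, was not searched.

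Ogn encodes osteoglycin, also called mimecan, a small leucine-rich proteoglycan of class III (ENSMUSG00000021390, chr13:49608046-49624501, plus strand). Ogn was read at 55.4, 55.9 and 51.5 CPM in the saline libraries and at 30.1, 33.5 and 32.6 CPM at 50 mg/kg. Its libraries stood at 24.15, 22.9 and 18.9 CPM at 100 mg/kg and at 37.0, 40.3 and 34.4 CPM at 200 mg/kg. Every treated library lay below every saline library, and the 100 mg/kg libraries lay below those of both other doses. Ogn fell 1.69-fold at 50 mg/kg (log2 fold change -0.76 ± 0.076 SE, adjusted p = 1.35e-07) and 2.46-fold at 100 mg/kg (-1.30 ± 0.080, adjusted p = 8.7e-12). At 200 mg/kg it fell 1.46-fold (-0.55 ± 0.076, adjusted p = 1.45e-05). The change at 100 mg/kg was -1.20 without library 3 of that group. Between doses, Ogn was lower at 100 than at 50 mg/kg by a log2 difference of -0.54 ± 0.083 (adjusted p = 7.85e-06) and higher at 200 than at 100 mg/kg by 0.75 ± 0.083 (adjusted p = 6.32e-08). Its gene lies inside Cenpp, a centromere protein gene on the opposite strand, with 0 exon bases in common, and Cenpp changed by -0.06, -0.10 and -0.01 at the 3 doses without passing.

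Dcn encodes decorin, which coats collagen fibrils and binds TGF-beta (ENSMUSG00000019929, chr10:97479609-97518143, plus strand). Dcn stood at 77.3, 72.9 and 70.6 CPM in saline and at 57.2, 62.8 and 58.9 CPM at 50 mg/kg. The 100 mg/kg libraries held 48.1, 46.35 and 47.1 CPM of Dcn and the 200 mg/kg libraries 56.7, 55.7 and 58.6 CPM. As with Ogn, no treated library reached the lowest saline library, and the lowest values were those at 100 mg/kg. Dcn fell 1.23-fold at 50 mg/kg (-0.30 ± 0.055, adjusted p = 0.000396), 1.56-fold at 100 mg/kg (-0.64 ± 0.056, adjusted p = 2.48e-09) and 1.29-fold at 200 mg/kg (-0.37 ± 0.056, adjusted p = 4.42e-05). Without library 3 of the 100 mg/kg group the middle value was -0.63. The difference between 100 and 50 mg/kg was -0.34 ± 0.057 (adjusted p = 2.41e-05), and that between 200 and 100 mg/kg was 0.27 ± 0.057 (adjusted p = 0.000273). The ratio of Dcn to Ogn per kilobase of exon was 1.80 ± 0.062 in saline and 2.46 ± 0.064 at 50 mg/kg (mean ± SD, n = 3). That ratio reached 2.87 ± 0.37 at 100 mg/kg and stood at 2.04 ± 0.21 at 200 mg/kg, so Ogn lost more of its level than Dcn where both were lowest.

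Fmod encodes fibromodulin, a class II proteoglycan that binds collagen I and takes part in fibril growth and crosslinking (ENSMUSG00000041559, chr1:134037254-134048277, plus strand). Fmod was scarce, at 2.27, 3.20 and 2.50 CPM in saline. At 50 mg/kg it stood at 0.96, 1.05 and 1.04 CPM, at 100 mg/kg at 0.89, 1.16 and 0.68 CPM, and at 200 mg/kg at 1.44, 1.32 and 1.68 CPM. All 9 treated libraries were below all 3 saline libraries. Fmod fell 2.61-fold at 50 mg/kg (-1.38 ± 0.25, adjusted p = 0.000378), 2.88-fold at 100 mg/kg (-1.52 ± 0.25, adjusted p = 2.05e-05) and 1.78-fold at 200 mg/kg (-0.83 ± 0.23, adjusted p = 0.0145). The fall at 200 mg/kg did not pass without saline library 2 (adjusted p = 0.1), library 1 of its own group (0.0543) or library 2 of its own group (0.0565), in a range of 0.00628 to 0.1 over 21 alternatives. Without library 3 of its group the value at 100 mg/kg was -1.36. Ranked from the most lowered of the 15682 tested genes, Fmod was number 43 at 50 mg/kg, 94 at 100 mg/kg and 170 at 200 mg/kg, and Ogn was number 205, 154 and 469.

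**Figure D1:**
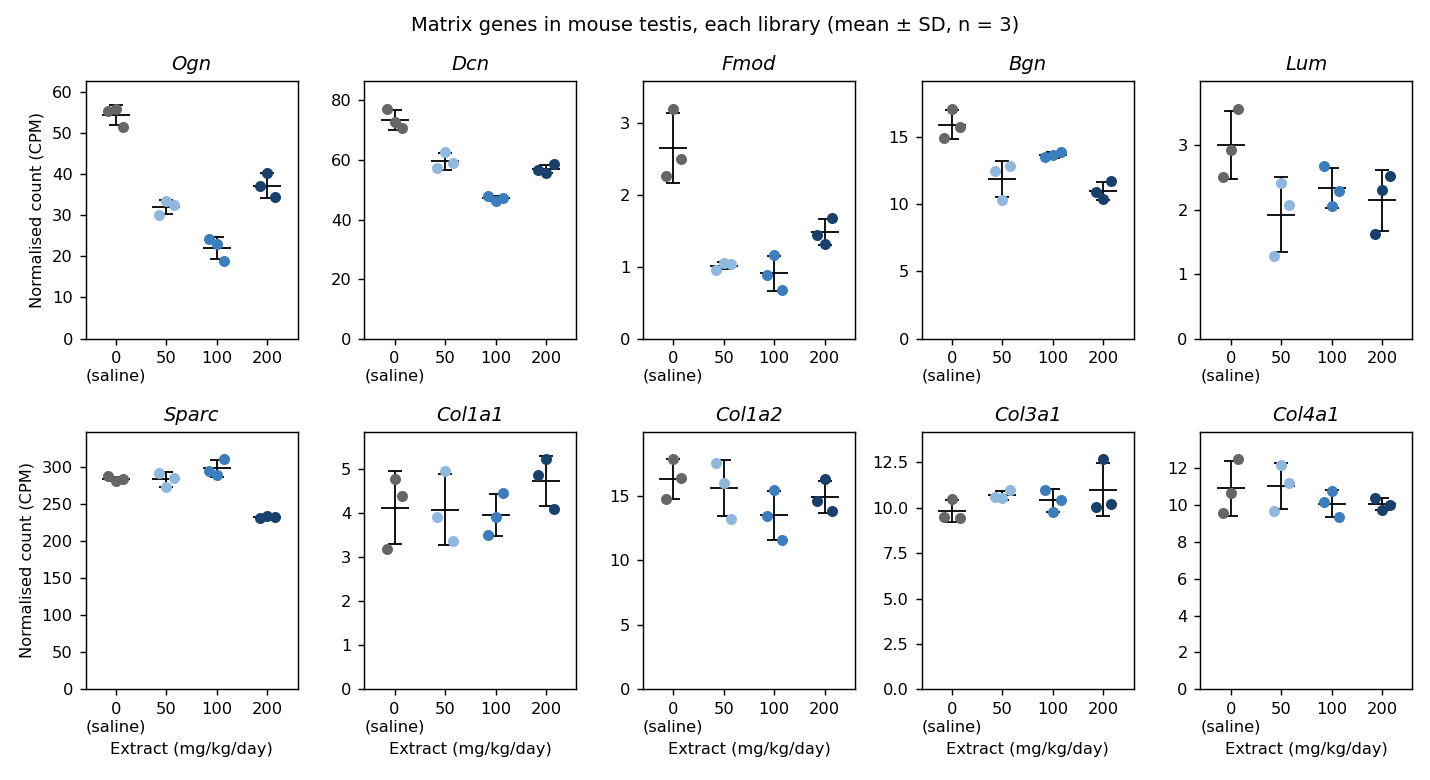
Normalised counts (CPM, each vertical axis from 0) of the 10 matrix genes by daily dose, with each of the 3 libraries of a group as a point and the mean ± SD as bars. Every treated library of Ogn, Dcn and Fmod lies below its saline libraries, and Sparc is low at 200 mg/kg, between 231.4 and 233.1 CPM.

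Bgn encodes biglycan, the closest relative of decorin and, like it, a class I proteoglycan (ENSMUSG00000031375, chrX:73483602-73495933, plus strand). Bgn stood at 14.9, 17.1 and 15.7 CPM in saline, at 12.4, 10.3 and 12.9 CPM at 50 mg/kg and at 10.9, 10.4 and 11.7 CPM at 200 mg/kg. The 100 mg/kg libraries, at 13.5, 13.6 and 13.9 CPM, were close to one another and sat between the saline libraries and those of the other doses. Bgn fell 1.34-fold at 50 mg/kg (-0.42 ± 0.098, adjusted p = 0.00409) and 1.45-fold at 200 mg/kg (-0.53 ± 0.099, adjusted p = 0.000467). At 100 mg/kg its value was -0.22 ± 0.096 (adjusted p = 0.0546), with a 95% interval of -0.42 to -0.02, and the adjusted p ran from 0.00986 to 0.189 over 20 alternatives, 6 of which passed. Those 6 were the length correction, a filter at a mean of 1 CPM, and leaving out saline library 1, library 2 or 3 of the 50 mg/kg group or library 2 of the 200 mg/kg group. Bgn was lower at 200 than at 100 mg/kg by -0.31 ± 0.10 (adjusted p = 0.0121), the reverse of the order seen for Ogn and Dcn. That difference did not pass without library 2 of the 200 mg/kg group (adjusted p = 0.0565) or with the length correction (0.071), in a range of 0.00956 to 0.071.

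Lum encodes lumican, a class II proteoglycan best known from the cornea and skin (ENSMUSG00000036446, chr10:97565128-97572703, plus strand). Lum was read at 2.51, 2.92 and 3.56 CPM in saline, 1.28, 2.41 and 2.07 CPM at 50 mg/kg, 2.67, 2.06 and 2.29 CPM at 100 mg/kg and 1.62, 2.30 and 2.53 CPM at 200 mg/kg. The groups overlapped at 100 and 200 mg/kg and did not overlap at 50 mg/kg. Its values of -0.63 ± 0.23 (adjusted p = 0.0637), -0.36 ± 0.23 (adjusted p = 0.185) and -0.48 ± 0.23 (adjusted p = 0.155) did not pass. Their 95% intervals ran from -1.11 to -0.15, from -0.83 to 0.10 and from -0.96 to -0.01, so that a fall as large as that of Ogn at 50 or 200 mg/kg lay within them. At 50 mg/kg, 4 of 21 alternatives passed, namely a fit of the compared groups alone (adjusted p = 0.0359) and fits without library 2 of the 50 mg/kg group (0.0476), without library 3 of the 100 mg/kg group (0.0358) or without any of the 100 mg/kg libraries (0.0378). The adjusted p of Lum at 50 mg/kg ran from 0.0358 to 0.254.

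Sparc encodes osteonectin, a secreted glycoprotein that binds collagen and calcium (ENSMUSG00000018593, chr11:55394500-55423183, minus strand). Sparc stood at 286.9, 280.2 and 283.3 CPM in saline, at 291.0, 272.2 and 285.5 CPM at 50 mg/kg and at 294.5, 288.5 and 310.1 CPM at 100 mg/kg. At 200 mg/kg all 3 libraries lay between 231.4 and 233.1 CPM, below each of the other 9 libraries. Sparc fell 1.22-fold at 200 mg/kg (-0.29 ± 0.042, adjusted p = 2.93e-05), while its values were -0.0027 ± 0.042 (adjusted p = 0.976) at 50 mg/kg and 0.07 ± 0.042 (adjusted p = 0.163) at 100 mg/kg. The drop also held against the other doses, by -0.28 ± 0.042 (adjusted p = 7.56e-05) from 50 mg/kg and by -0.36 ± 0.042 (adjusted p = 1.61e-07) from 100 mg/kg. Sparc made up 58.9 to 60.3% of the summed CPM of the 10 genes in saline, 63.9 to 67.0% at 50 mg/kg, 69.6 to 72.3% at 100 mg/kg and 60.2 to 61.3% at 200 mg/kg.

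Col1a1 and Col1a2 encode the alpha chains of collagen I, the main fibril collagen. Col1a1 (ENSMUSG00000001506, chr11:94936224-94953042, plus strand) stood at 3.19, 4.77 and 4.40 CPM in saline, 3.91, 4.95 and 3.37 CPM at 50 mg/kg, 3.50, 3.90 and 4.45 CPM at 100 mg/kg and 4.86, 5.22 and 4.10 CPM at 200 mg/kg. Col1a2 (ENSMUSG00000029661, chr6:4504814-4541544, plus strand) stood at 14.7, 17.8 and 16.3 CPM in saline, 17.5, 16.0 and 13.2 CPM at 50 mg/kg, 13.4, 15.4 and 11.6 CPM at 100 mg/kg and 14.6, 16.3 and 13.8 CPM at 200 mg/kg. Each dose overlapped saline for both genes. Col1a1 gave -0.03 ± 0.18, -0.07 ± 0.18 and 0.19 ± 0.18 at 50, 100 and 200 mg/kg (adjusted p = 0.938, 0.784 and 0.518). Col1a2 gave -0.08 ± 0.11, -0.27 ± 0.11 and -0.14 ± 0.11 (adjusted p = 0.7, 0.0508 and 0.448). The Col1a2 value at 100 mg/kg passed under 8 of 20 alternatives, its adjusted p ranging from 0.0135 to 0.694. Those 8 were no count filter, a filter at a mean of 1 CPM, the replicate block, and leaving out saline library 1, library 1 or 3 of the 50 mg/kg group, library 2 of the 100 mg/kg group or library 2 of the 200 mg/kg group. The value stood at -0.17 (adjusted p = 0.208) without library 3 of that group. Per kilobase of exon, Col1a2 was 4.46 ± 0.57 times as abundant as Col1a1 in saline and 3.51 ± 0.21 times at 200 mg/kg (mean ± SD, n = 3).

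Col3a1 encodes the chain of collagen III, which shares fibrils with collagen I (ENSMUSG00000026043, chr1:45311538-45349706, plus strand). It ranged from 9.45 to 10.5 CPM in saline and from 9.76 to 12.7 CPM over the 9 treated libraries, with changes of 0.12 ± 0.11, 0.08 ± 0.11 and 0.15 ± 0.11 (adjusted p = 0.478, 0.567 and 0.364). Col4a1 encodes a chain of the basement membrane collagen (ENSMUSG00000031502, chr8:11198423-11312826, minus strand). It ranged from 9.56 to 12.5 CPM in saline and from 9.34 to 12.2 CPM over the treated libraries, with changes of 0.02 ± 0.11, -0.11 ± 0.11 and -0.12 ± 0.12 (adjusted p = 0.946, 0.439 and 0.53). Over the 4 collagen genes and 3 doses the 95% intervals reached from -0.51 to 0.55 on the log2 scale. The fall of Ogn at 100 mg/kg, -1.30, lay outside the collagen intervals at that dose, and those of Fmod, -1.52, and Dcn, -0.64, did too. Smaller falls were not set apart in this way. Those of Dcn at 50 mg/kg (-0.30) and 200 mg/kg (-0.37) and of Sparc at 200 mg/kg (-0.29) lay within the Col1a2 intervals at those doses. Col4a1 shares 22 exon bases with Col4a2 on the opposite strand, and the sources used here do not say whether reads were counted by strand.

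**Figure D2:**
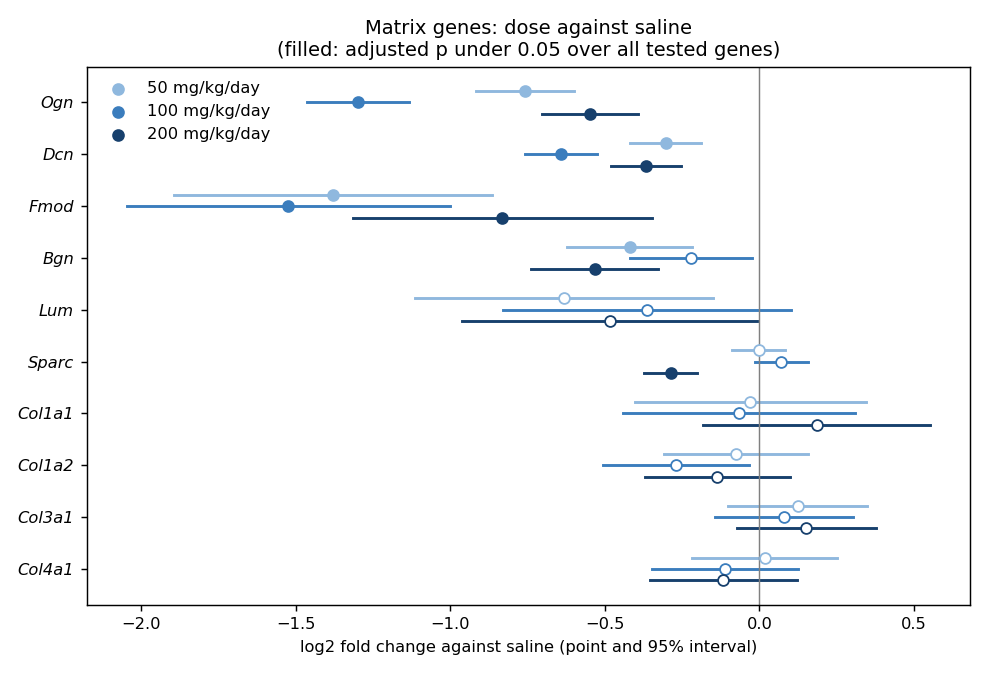
Log2 fold change of each matrix gene against saline at 50, 100 and 200 mg/kg per day, as points with 95% intervals, filled where the adjusted p over all 15682 tested genes was under 0.05. Filled points are all left of 0 and belong to Ogn, Dcn and Fmod at 3 doses, Bgn at 50 and 200 mg/kg and Sparc at 200 mg/kg; no collagen point is filled.

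Counted over the 10 genes, 4 fell and 0 rose at 50 mg/kg, where 17.2% of all tested genes passed, 8.02% lower and 9.21% higher. The split of all calls at that dose was 1444 higher and 1257 lower, or 1759 and 878 when libraries were scaled by size alone. At 100 mg/kg 3 fell and 0 rose, where 52.4% of all tested genes passed, 26.8% lower and 25.6% higher, so the count of 3 is near the background there. At 200 mg/kg 5 fell and 0 rose, where 18.6% of all tested genes passed, 8.3% lower and 10.3% higher. By libraries rather than tests, 5 genes lay wholly below saline and 1 wholly above at 50 mg/kg, where 37.6% of all tested genes did not overlap. At 100 mg/kg the counts were 4 and 1 (58.7% of all tested genes) and at 200 mg/kg 5 and 0 (39.2%). The median change of the 10 was -0.19, -0.25 and -0.33 at the 3 doses, against -0.0006, 0.0086 and -0.0013 over all tested genes. Lower at all 3 doses were 3 of the 10, against 255 of the 15682, or 1.63%. Without library 3 of the 100 mg/kg group the counts were 5, 3 and 5, the addition at 50 mg/kg being Lum. The 10 genes were chosen with earlier results of these data known, so setting them beside all tested genes is no test of the set.

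Between doses, 2 of the 10 passed from 50 to 100 mg/kg, Ogn and Dcn, both lower, where 51.5% of all tested genes passed, 26.9% lower and 24.6% higher. From 50 to 200 mg/kg 1 passed, Sparc, against 5.05% of all tested genes, 2.51% lower and 2.54% higher. The 792 genes behind that share became 462 to 507 when any 1 library of those groups was left out and 1690 without library 3 of the 100 mg/kg group. From 100 to 200 mg/kg 5 passed, against 53.0% of all tested genes, 27.8% higher and 25.2% lower, with Ogn, Dcn and Fmod higher at 200 mg/kg and Sparc and Bgn lower. Fmod was higher there by 0.69 ± 0.28 (adjusted p = 0.0411), which did not pass under 8 of 20 alternatives, among them DESeq2 (0.0908) and leaving out library 1 or 3 of either group (0.0658 to 0.193, in a full range of 0.0222 to 0.193). Without overlap between the libraries of the doses, 2 genes were lower and 1 higher from 50 to 100 mg/kg (58.6% of all tested genes), 1 and 2 from 50 to 200 mg/kg (25.9%) and 2 and 3 from 100 to 200 mg/kg (59.3%). In the test for any difference among the 4 groups, which 64.3% of all tested genes passed, Ogn, Dcn, Sparc, Fmod and Bgn passed and Lum and the 4 collagen genes did not.

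Summed over each class, the proteoglycan genes lay below every saline library at each dose, and the collagen genes overlapped saline at each dose. The 5 proteoglycan genes summed to 149 ± 4.7 CPM in saline, 107 ± 4.1 at 50 mg/kg, 86.1 ± 3.2 at 100 mg/kg and 109 ± 1.2 at 200 mg/kg (mean ± SD, n = 3). These sums were 71.3, 57.6 and 72.8% of the saline mean at the 3 doses. The 4 collagen genes summed to 41.1 ± 3.7 CPM in saline, 41.3 ± 2.4 at 50 mg/kg, 37.9 ± 2.0 at 100 mg/kg and 40.6 ± 3.0 at 200 mg/kg, which is 100.5, 92.1 and 98.8% of the saline mean. Dcn and Ogn carry most of the first sum, so it mainly follows those genes.

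**Figure D3:**
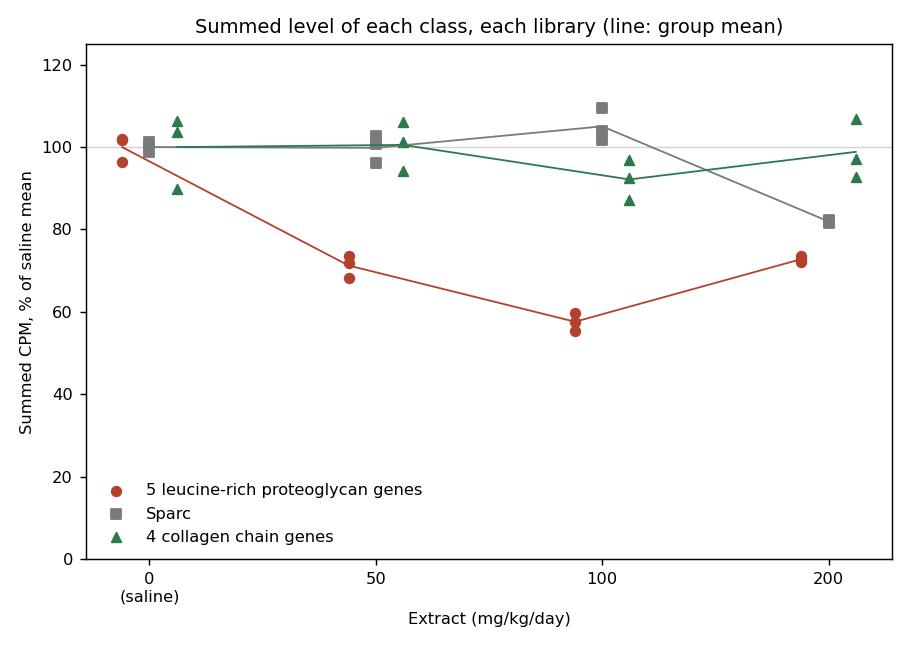
Summed CPM of the 5 proteoglycan genes, of Sparc and of the 4 collagen genes in each library, as a percentage of the saline mean (axis from 0), by daily dose, with lines through group means. The proteoglycan sum drops to 57.6% at 100 mg/kg, the collagen sum stays between 92.1 and 100.5%, and Sparc drops at 200 mg/kg.

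Compared per kilobase of exon in saline, the order of levels was Sparc at 104 CPM per kilobase, Dcn at 38.0, Ogn at 21.1, Bgn at 6.57 and Col1a2 at 3.05. Below them came Col3a1 at 1.76, Col4a1 at 1.65, Lum at 1.23, Fmod at 0.85 and Col1a1 at 0.69 CPM per kilobase. From Col3a1 down, each gene's saline libraries overlapped those of the next, and above it they did not. The falls were thus found both among the most abundant of these genes and in Fmod, near the bottom of the order.

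Several proteoglycan genes sit in clusters on the chromosome, and the neighbours of Ogn did not all move with it. Omd, which encodes osteomodulin and lies 15224 bases from Ogn, fell at all 3 doses, from 3.80 ± 0.42 CPM in saline to 1.77 ± 0.25, 2.21 ± 0.32 and 2.40 ± 0.032 CPM (mean ± SD, n = 3). Its changes were -1.09 ± 0.19, -0.78 ± 0.19 and -0.66 ± 0.18 (adjusted p = 0.000321, 0.00102 and 0.0146). Ecm2, 75257 bases from Ogn, fell at 50 mg/kg (-0.52 ± 0.14, adjusted p = 0.0117) and 100 mg/kg (-0.45 ± 0.14, adjusted p = 0.00896), and gave -0.30 ± 0.14 (adjusted p = 0.137) at 200 mg/kg. Aspn, which encodes asporin between Ecm2 and Omd, rose at 50 mg/kg (0.72 ± 0.25, adjusted p = 0.0483). Aspn was scarce, at 339 counts over all libraries, and did not pass the test for any difference among the 4 groups (adjusted p = 0.0612). In the cluster of Dcn and Lum, Epyc fell at 100 mg/kg (-0.52 ± 0.10, adjusted p = 0.000108) and gave 0.24 and 0.04 at 50 and 200 mg/kg without passing, and Kera, at 40 counts over all libraries, was not tested. Prelp, 115840 bases from Fmod, gave -0.39 ± 0.16, -0.11 ± 0.16 and -0.38 ± 0.16 (adjusted p = 0.0987, 0.591 and 0.113). Of 10 further proteoglycan genes listed for this family 6 were tested, with 1 higher and 2 lower at 50 mg/kg, 0 and 3 at 100 mg/kg, then 0 and 1 at 200 mg/kg. The shares of all tested genes that passed at these doses were 17.2, 52.4 and 18.6%.

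Other collagen genes did not fall together either, and Col16a1 and Col15a1 rose at every dose. Of 9 other interstitial collagen genes tested, 2 rose at 50 mg/kg, 1 rose and 1 fell at 100 mg/kg and 1 rose at 200 mg/kg, with list medians of 0.06, 0.04 and 0.02. Col16a1, whose product is a minor fibril-associated collagen, rose from 58.7 ± 3.9 CPM in saline to 108 ± 2.7, 81.7 ± 5.0 and 94.3 ± 4.6 CPM. Its changes were 0.88 ± 0.059, 0.48 ± 0.060 and 0.68 ± 0.060 (adjusted p = 1.27e-10, 5.01e-07 and 9.14e-09). Col5a1, a chain of a minor fibril collagen, rose at 50 mg/kg (0.48, adjusted p = 0.0114). Col12a1 fell at 100 mg/kg (-0.94 ± 0.12, adjusted p = 3.91e-07). Among 19 other basement membrane genes, 1 rose and 3 fell at 50 mg/kg, 1 and 7 at 100 mg/kg, then 2 and 2 at 200 mg/kg, with medians of 0.06, -0.30 and 0.05. Both lists are to be read against 17.2, 52.4 and 18.6% of all tested genes that passed. The list medians are not corrected for length. At 100 mg/kg the median of all tested genes was -0.22 at 5000 to 7000 exon bases and -0.36 from 7000 bases up. Col15a1, which links basement membranes to the stroma beneath, rose at every dose, from 12.65 ± 1.8 CPM to 21.2 ± 0.85, 21.9 ± 1.6 and 24.0 ± 0.26 CPM (adjusted p = 4.43e-06, 2.13e-07 and 9.79e-08). Lamc3, a laminin chain gene, fell by 0.39, 0.98 and 0.37 on the log2 scale (adjusted p = 0.019, 2.94e-07 and 0.0252).

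Sparcl1, the nearest relative of Sparc, was lower at every dose. The gene encodes hevin and fell from 44.7 ± 1.4 CPM in saline to 28.5 ± 0.44, 26.05 ± 1.1 and 33.1 ± 1.6 CPM, by -0.65 ± 0.064, -0.78 ± 0.064 and -0.43 ± 0.063 (adjusted p = 9.07e-08, 1.05e-09 and 2.97e-05). Spock2, a testican gene, also fell at each dose, by -0.26 ± 0.047, -0.51 ± 0.047 and -0.21 ± 0.047 (adjusted p = 0.000373, 6.24e-09 and 0.00225). Of 17 tested genes of the SPARC family and other matricellular proteins, 2 rose and 2 fell at 50 mg/kg, 1 and 5 at 100 mg/kg, then 0 and 2 at 200 mg/kg. Among 16 genes of elastic fibres and microfibrils, the counts were 0 and 2, 1 and 4, and 0 and 3. For comparison, 17.2, 52.4 and 18.6% of all tested genes passed at the 3 doses. Efemp1, which encodes fibulin-3, fell at every dose, by -1.02 ± 0.17, -0.56 ± 0.16 and -0.53 ± 0.16 (adjusted p = 0.00019, 0.00621 and 0.0271).

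Genes that make, cut or sense collagen were counted list by list. Of 25 genes of collagen processing and crosslinking, 1 rose and 1 fell at 50 mg/kg, 4 and 4 at 100 mg/kg, then 2 and 3 at 200 mg/kg. Of 11 matrix protease and inhibitor genes, 0 rose, and 1, 5 and 3 fell. Timp3, an inhibitor of metalloproteinases, fell from 17.6 ± 0.89 to 4.57 ± 1.1 CPM at 100 mg/kg (-1.94 ± 0.13, adjusted p = 6.16e-11), and stood at 14.9 ± 0.63 CPM at 50 mg/kg (-0.24 ± 0.11, adjusted p = 0.144). It also fell at 200 mg/kg, to 13.5 ± 2.0 CPM (-0.37 ± 0.11, adjusted p = 0.0235). Of 8 collagen receptor genes, 0 changed at 50 mg/kg, 3 fell at 100 mg/kg and 2 fell at 200 mg/kg. The discoidin receptor gene Ddr2 fell at 100 mg/kg (-1.44 ± 0.22, adjusted p = 6.29e-06). Among 17 genes of TGF-beta ligands, receptors and Smads, 1 fell at 50 mg/kg, 3 rose and 5 fell at 100 mg/kg, and 1 rose and 1 fell at 200 mg/kg. Over all tested genes 17.2, 52.4 and 18.6% passed at the 3 doses, so over the whole table calls were most frequent at 100 mg/kg. That did not hold for every list, since the further proteoglycan genes had 3 calls at 50 and at 100 mg/kg. At no dose did more than 8 genes of any of these lists pass. The map of folds draws 36 genes, up to 4 of each list with the smallest p for any difference among the groups, so the number that passed follows from that choice and is no result. The 29 of them that passed at 100 mg/kg also passed without library 3 of that group.

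**Figure D4:**
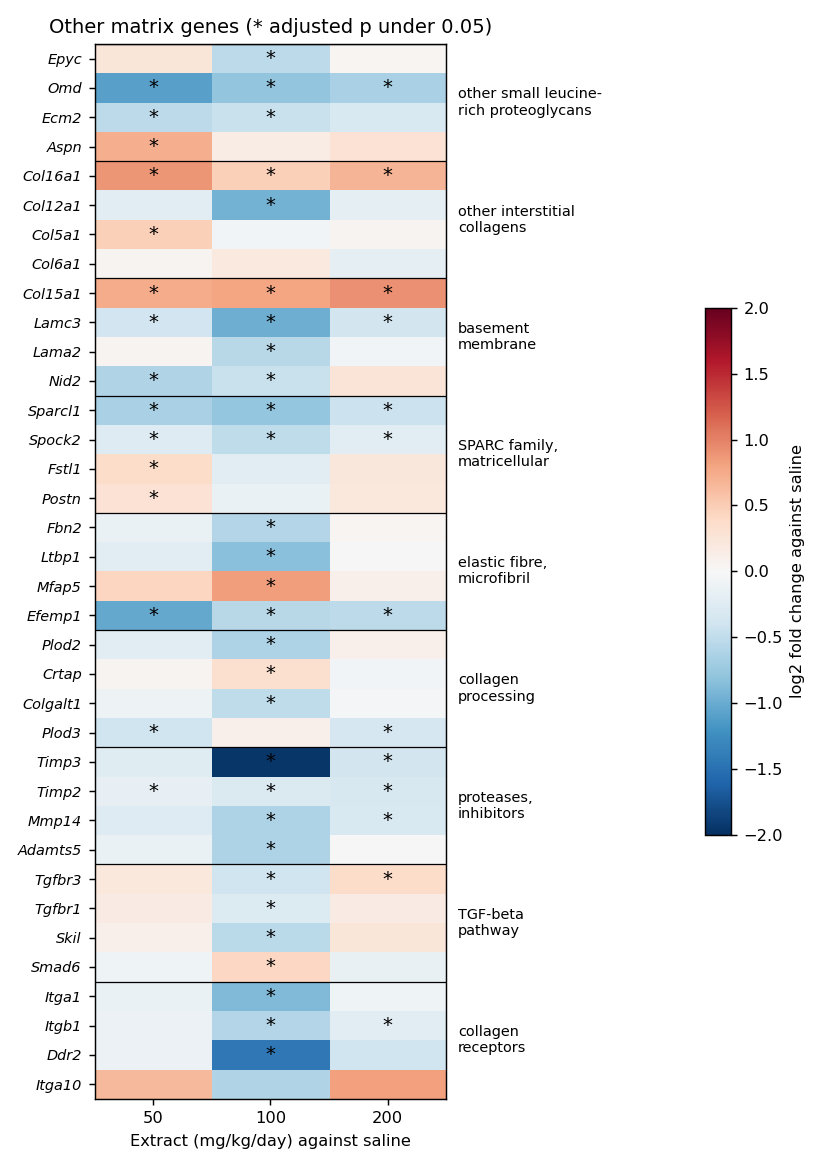
Log2 fold change against saline (colour) of 36 other matrix genes at 50, 100 and 200 mg/kg per day, grouped by role, with asterisks where the adjusted p was under 0.05. Omd, Lamc3, Sparcl1, Spock2, Efemp1 and Timp2 are lower and Col16a1 and Col15a1 higher at every dose. The genes were drawn for their small p in the test among the 4 groups, so the number of asterisks follows from that choice.

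At 100 mg/kg the change of a gene went with its length. The median change at that dose was 0.38 for tested genes with under 1000 exon bases, 0.08 for those of 2000 to 3000 bases and -0.22 for those of 5000 to 7000 bases. At 50 and 200 mg/kg the medians of these classes lay between -0.06 and 0.03. Ogn, Bgn and Lum have between 2419 and 2566 exon bases and the 4 collagen genes between 5348 and 6615. Dcn has 1939 exon bases and Fmod 3120. With a trend on length taken out of each library, Ogn, Dcn and Fmod fell at 100 mg/kg with log2 changes of -1.36, -0.78 and -1.51. Without the correction the values were -1.30, -0.64 and -1.52, so Ogn and Fmod fell about as far and Dcn fell further with it. Under that correction Bgn (-0.30, adjusted p = 0.00986) and Col3a1 (0.31, adjusted p = 0.0228) also passed, in opposite directions, and Col1a2 gave -0.06 (adjusted p = 0.694). Of the 29 named matrix genes that passed at 100 mg/kg, 23 still passed with the correction, and Tgfbr1, Lama2, Nid2, Adamts5, Tgfbr3 and Crtap did not.

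**Figure D5:**
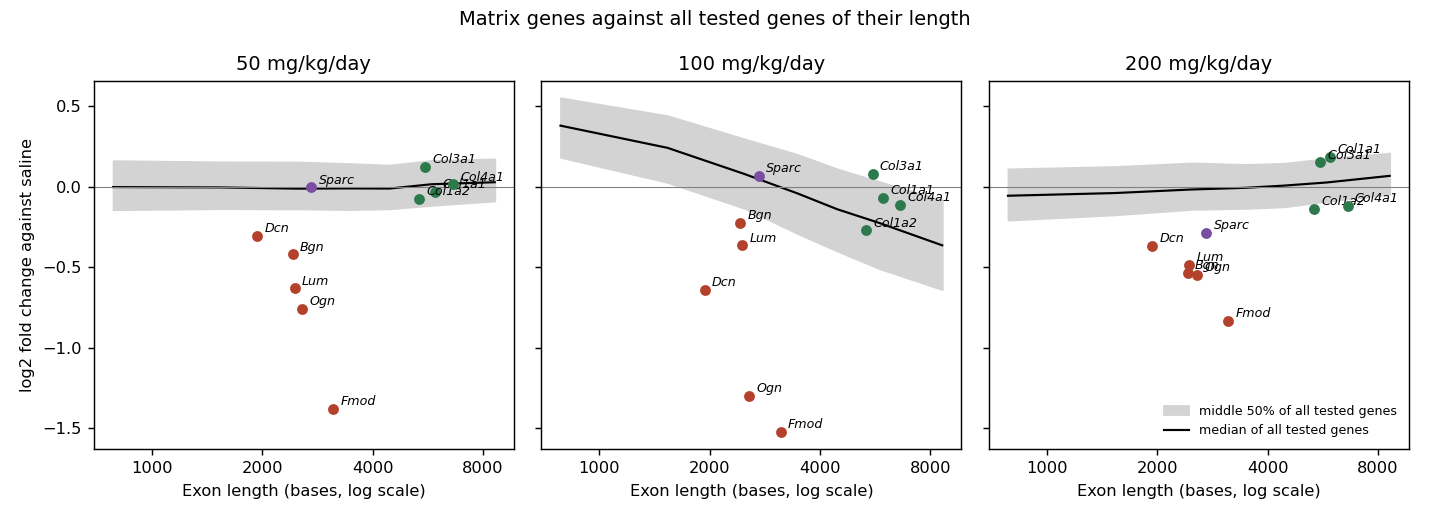
Log2 fold change against saline of each matrix gene against its exon length in bases (log axis), at each dose, with the median (line) and middle 50% (grey) of all tested genes of that length. At 100 mg/kg the line falls from 0.38 to -0.36 with length. Ogn, Dcn, Fmod, Bgn and Lum lie below the grey band at all 3 doses, although Lum at every dose and Bgn at 100 mg/kg did not pass.

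Markers of the cells that could supply these transcripts were followed beside them. Over all tested genes 17.2, 52.4 and 18.6% passed at 50, 100 and 200 mg/kg, and the counts of markers are to be read against those shares. Of 14 fibroblast and interstitial mesenchyme markers, 13 were tested, and 0 rose and 1 fell at 50 mg/kg, 3 and 2 at 100 mg/kg, then 0 and 1 at 200 mg/kg. Their summed level was 67.8 to 72.7 CPM in saline, 65.2 to 71.5 at 50 mg/kg, 65.1 to 68.9 at 100 mg/kg and 63.4 to 68.3 at 200 mg/kg. No marker of the list was at 0 counts over the 12 libraries together, a check that was not made group by group. By the sums, transcripts of the list were present in every group, and the sum at 100 mg/kg overlapped that of saline. Peritubular myoid markers summed to 514 to 533 CPM in saline, 479 to 512 at 50 mg/kg, 547 to 606 at 100 mg/kg and 475 to 490.5 at 200 mg/kg. Actg2, at a mean of 412.9 CPM, makes up most of that sum, which mainly follows this gene. Of the 9 myoid markers tested, 0 rose and 1 fell at 50 mg/kg, 1 and 2 at 100 mg/kg, then 0 and 1 at 200 mg/kg. Endothelial markers summed to 41.6 to 45.7, 44.2 to 46.1, 37.8 to 39.3 and 38.5 to 44.2 CPM in the same order.

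Of 12 Sertoli cell markers, 1 rose and 7 fell at 50 mg/kg, 1 and 5 at 100 mg/kg, then 1 and 7 at 200 mg/kg, and their sum was 1657 to 1684 CPM in saline, 1391 to 1470 at 50 mg/kg, 1518 to 1649 at 100 mg/kg and 1292 to 1303 at 200 mg/kg. Of 8 Leydig cell markers, 2 rose and 4 fell, then 0 and 4 at each higher dose, with sums of 1296 to 1340, 1246 to 1317, 1148 to 1282 and 1195 to 1246 CPM. Of 10 macrophage markers, 0 rose and 1 fell at 50 mg/kg, 3 rose and 3 fell at 100 mg/kg and 0 rose and 6 fell at 200 mg/kg. Their sum was 137 to 140.4 CPM in saline, 118 to 131 at 50 mg/kg, 139 to 152 at 100 mg/kg and 97.3 to 104 at 200 mg/kg. The mean sums of Sertoli, macrophage, peritubular myoid, spermatid, spermatocyte and fibroblast markers were lowest at 200 mg/kg. Those of Leydig and endothelial markers were lowest at 100 mg/kg, and that of spermatogonia markers at 50 mg/kg. Of these, only the Sertoli and macrophage sums did not overlap any other group at their lowest dose. Of 8 spermatid markers, 6 rose and 1 fell at 100 mg/kg, with sums of 18630 to 22690 CPM there, against 17130 to 17500 in saline, 16090 to 16870 at 50 mg/kg and 14860 to 16580 at 200 mg/kg. At 100 mg/kg 2 of 8 spermatocyte markers rose and 6 fell, and 2 of 8 spermatogonia markers rose and 2 fell. The spermatocyte sum was higher there all the same, at 5772 to 6166 CPM against 5411 to 5497 in saline. Ldhc, at a mean of 4558 CPM, makes up most of that sum. Changes at 100 mg/kg went with exon length, and these marker counts and sums were not corrected for length. Among all tested genes 17.2, 52.4 and 18.6% passed at 50, 100 and 200 mg/kg. The part of these cell types in the changes of the matrix genes was not tested. Markers of epididymis and tunica summed to 0.42 to 1.14 CPM over all libraries, with Lcn8 at 0 counts.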

How the data were processed

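RNA from frozen testis was made into polyadenylated RNA libraries with a stranded kit, per the labels' protocols. The authors deposited 1 table of raw read counts per Ensembl gene for all 12 libraries. Tools named in the submitters' processing notes are DESeq2, featureCounts, STAR and Trimmomatic, with builds GRCm38 and mm10, and the sources used here give no version, annotation or counting setting for strand or multiply mapped reads. Of the 21959 genes, 108 had no symbol in GENCODE M21 (0.0504 to 0.0546% of counts). The M21 annotation also gave positions and exon lengths, taken as the union of a gene's exons. Libraries were grouped by title. Total counts ran from 14382378 to 19118265, and no library repeated another.

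Genes were kept by filterByExpr, scaled by TMM factors and fitted over the 4 groups with edgeR 4.0.16 in R 4.3.3, using robust quasi-likelihood (8 residual degrees of freedom). Benjamini-Hochberg adjustment ran over 15682 genes at 0.05. The common coefficient of biological variation came to 5.01%, with 16 prior degrees of freedom at the median. The SE was the log2 fold change divided by the square root of F. The fit was checked on simulated counts.

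The matrix genes, the pathway and marker lists and the tests were chosen with earlier results of these data known. All 10 matrix genes were described whatever their result, and from each pathway list up to 4 genes with the smallest p for any difference among groups. Alternatives were RLE factors, library size alone, no count filter, a mean of at least 1 CPM, DESeq2 1.42.0, a fit of the compared groups alone, a fit without the 100 mg/kg libraries, a replicate block, a length correction (lowess span 0.3) and leaving out each library. Promoter windows came from RefSeq, build GRCm38.p6.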

Additional observations from a re-analysis of the deposited data

How the results depend on the processing

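Ogn and Dcn at every dose, Fmod at 50 and 100 mg/kg, Bgn at 50 and 200 mg/kg and Sparc at 200 mg/kg kept their direction and their call under every alternative run. Over all comparisons and alternatives of the 10 genes, a call was gained 25 times and lost 13 times, and 0 called values reversed; values that never passed could change sign, as Col4a1 at 100 mg/kg did (-0.19 to 0.17). The number of the 10 genes called at 100 mg/kg against saline was 3, and 5 with a filter at a mean of 1 CPM and with the length correction; leaving out 1 library gave 3 to 5, with 5 without saline library 1, library 3 of the 50 mg/kg group or library 2 of the 200 mg/kg group. Between 200 and 50 mg/kg the number was 1, and 2 in the fit of those groups alone and without the 100 mg/kg libraries; leaving out 1 library gave 1 to 2, the second gene being Ogn without library 3 of the 100 mg/kg group (adjusted p = 0.0259, range 0.0259 to 0.435). Over all tested genes, 2701 were called at 50 mg/kg, with 1714 to 4013 when 1 library was left out: 1714 without saline library 3 or library 3 of the 50 mg/kg group, 1738 without saline library 2. At 200 mg/kg 2914 were called, with 4439 in the fit of the 2 groups alone and 1941 to 4181 when 1 library was left out, the lowest without library 1 of that group. Col16a1 between 200 and 100 mg/kg reversed to -0.027 (adjusted p = 0.731) with the length correction. The cause of these shifts was not tested. Replicate numbers did not pair the libraries: correlations of same-numbered libraries ran from -0.129 to 0.048, and with a replicate block 2473, 8095 and 2718 genes and 4, 4 and 5 of the 10 were called at 50, 100 and 200 mg/kg. Depth limits Fmod, Lum and Col1a1 most, since each stayed under 6 CPM.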

Other observations

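Genes other than these 10 that followed single matrix genes most closely were found by the root mean square difference of centred log2 CPM over the 12 libraries, among 13570 candidates with a mean of at least 1 CPM. Closest to Ogn were Rnd3 (0.168), the laminin chain gene Lamc3 (0.169) and Fam234b (0.172), where the deviation of Ogn from its own mean was 0.477. By group mean, Rnd3 stood at 6.6 CPM in saline, 4.80 at 50 mg/kg, 2.69 at 100 mg/kg and 4.55 at 200 mg/kg. In the same order Lamc3 stood at 17.8, 13.6, 8.97 and 13.8 CPM and Fam234b at 33.0, 24.5, 17.0 and 23.4 CPM. Having been chosen for likeness to Ogn, they share its lowest dose by that choice.

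Closest to Sparc were Cstf1, a gene of the messenger RNA cleavage complex (0.0356), the ribosomal protein gene Rps3a1 (0.0399) and Tekt3, a sperm tail gene (0.0457), against a deviation of 0.14 for Sparc itself. Cstf1 stood at 140.5 CPM in saline, 133 at 50 mg/kg, 146 at 100 mg/kg and 114 at 200 mg/kg, its likeness to Sparc being what chose it. Rps3a1 has close copies in the genome, so its level is uncertain. Closest to Col1a1 were Tnfrsf8 (0.145), Krt77 (0.145) and Tram2 (0.148), against 0.216 for Col1a1, so no gene followed it closely. These are descriptions of 12 libraries, and the genes share libraries and depth.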
